A study of Homo sapiens with 18 samples.

Results

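The OAS family comprises OAS1, OAS2, OAS3 and OASL, which were taken by gene symbol from the 19784 genes of the deposited tables. All 4 were found, and all 4 passed the filter on low values, which left 13683 genes to test in the first experiment and 13831 genes in the other. The RNA came from THP-1, a monocytic line grown from a human acute myeloid leukaemia with the MLL-AF9 fusion gene. In the first experiment, 4 libraries each came from a line labelled PHF8, a line labelled F279S and wt cells. PHF8 is a histone demethylase, and F279S is known as a form of it without catalytic activity. In the second experiment, 2 libraries each came from lines labelled ERDD (genotype PHF8DD), ERPHF8 (genotype PHF8) and ERAA (genotype PHF8AA), all at day 3. The labels give 4-OHT, at 100 nM, for ERDD and ERAA and no treatment for ERPHF8, so in comparisons with ERPHF8 the genotype and that label cannot be told apart. The sources used here do not state the promoter of any transgene, whether a line is a clone, or whether the libraries of a line came from separate cultures, so p-values measure the spread between these libraries, which may be technical. The title of the series names the type I interferon response in this leukaemia as its subject.

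OAS proteins are interferon-induced sensors of double-stranded RNA. On binding it, OAS1, OAS2 and OAS3 make short oligoadenylates, which act as a second messenger that leads to the cutting of cellular and viral RNA. The 3 synthetases differ in how many copies of a core unit they carry, with fewest in OAS1 and most in OAS3. Human OASL has lost the synthetase activity, carries ubiquitin-like repeats and is known to enhance signalling by the RNA sensor RIG-I.

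All 4 genes lie on chromosome 12 (hg38). OAS1 spans chr12:112906777-112933222, OAS3 chr12:112938352-112973249 and OAS2 chr12:112978395-113011723, all on the plus strand. The gap between OAS1 and OAS3 is 5129 bases and the gap between OAS3 and OAS2 is 5145 bases. OASL lies 8.01 Mb from OAS2, at chr12:121019111-121039242 on the minus strand. These spans equal those of GENCODE v29, which annotates 11 transcripts for OAS1 and 7, 7 and 4 for OAS2, OAS3 and OASL. An antisense gene on the minus strand, AC004551.1, covers most of OAS1 and all of OAS3 and OAS2 (chr12:112907628-113017751). The library kit as labelled does not mark strand, so its reads cannot be told apart from those of the 3 synthetase genes. OASL is overlapped by no other annotated gene.

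Promoter sequences were available in RefSeq (GRCh38.p14) for 2 of the 4 genes, OAS1 and OAS3, and are shown because interferon-induced genes are known to be bound upstream at repeats of GAAA. Each runs from 250 bases before to 50 bases after the start that RefSeq gives, which lies downstream of the start of the GENCODE span above, on the plus strand, at chr12:112906712-112907011 for OAS1 and chr12:112938224-112938523 for OAS3. Capitals mark every match of AANNGAAA, searched on both strands; overlapping matches run together.
OAS1: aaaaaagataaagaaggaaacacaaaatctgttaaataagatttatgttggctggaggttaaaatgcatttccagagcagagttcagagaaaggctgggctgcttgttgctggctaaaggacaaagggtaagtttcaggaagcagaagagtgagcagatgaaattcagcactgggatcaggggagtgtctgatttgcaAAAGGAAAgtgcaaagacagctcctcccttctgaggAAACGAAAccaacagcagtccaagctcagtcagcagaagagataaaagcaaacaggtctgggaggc
OAS3: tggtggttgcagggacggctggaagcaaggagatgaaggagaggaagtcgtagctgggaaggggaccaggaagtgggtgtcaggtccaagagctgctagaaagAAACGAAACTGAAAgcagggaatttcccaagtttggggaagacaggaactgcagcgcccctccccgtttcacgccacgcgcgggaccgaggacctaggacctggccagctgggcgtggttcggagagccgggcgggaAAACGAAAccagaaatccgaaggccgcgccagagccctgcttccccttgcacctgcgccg
The OAS1 window held 2 matches, from -52 to -45 and from -16 to -9 relative to the RefSeq start. The OAS3 window held 3, of which those at -147 to -140 and -141 to -134 overlap and the other runs from -10 to -3. At least 1 match of AANNGAAA was found in 22.8% of all 35116 promoter windows of the same length. A match is a description of these letters and not of binding.

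Levels are given as CPM, a gene's reads scaled to a library total of 1 M. A fold change is a difference of log2(CPM + 0.5), which understates the change of low genes, and a gene was called at a Benjamini-Hochberg adjusted p below 0.05 in limma over all genes tested. Library totals ran from 18.2 M to 51.5 M reads in the first experiment, and from 40.6 M to 41.3 M reads in the second. RNA of PHF8 itself averaged 2020 CPM in PHF8 cells and 5381 CPM in F279S cells, against 50.6 CPM in wt cells. It averaged 1109 CPM in ERDD, 1906 CPM in ERPHF8 and 2150 CPM in ERAA. All 10 monocytic markers examined reached 1 CPM in every library, while T cell, epithelial and red cell markers summed to at most 0.379 CPM. Fibroblast markers summed to 24.3 CPM in PHF8 library 1 and 31.9 CPM in F279S library 2, against 0.824 to 1.93 CPM in the other 10 libraries of the first experiment. In each line of the first experiment, libraries 1 and 2 stood apart from libraries 3 and 4; the labels name no batch, and the values within each of these library pairs are given below.

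**Figure D1:**
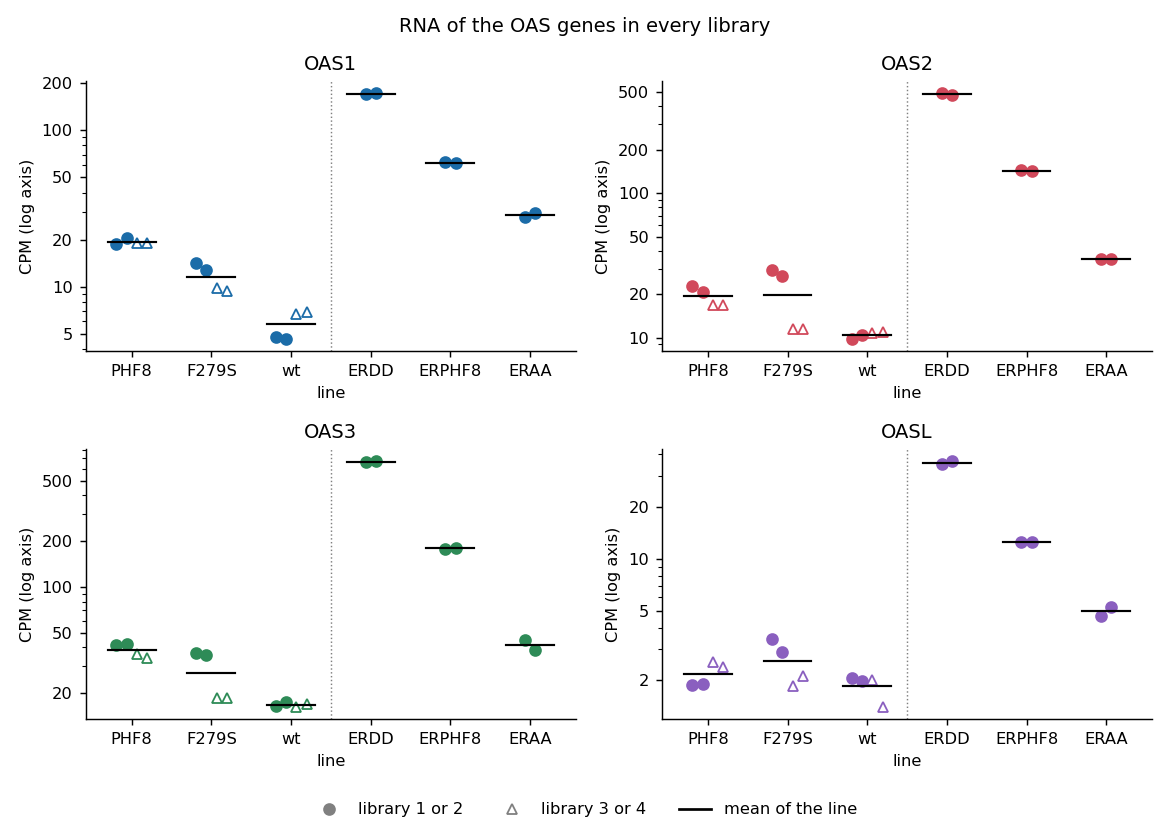
CPM of each OAS gene (log axis) in every library of the 6 lines, with the mean of the line as a bar; filled circles are libraries 1 and 2, open triangles libraries 3 and 4, and the dotted line parts the 2 experiments. All 4 genes are highest in ERDD, and in the F279S line OAS2 and OAS3 are higher in libraries 1 and 2 than in libraries 3 and 4.

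RNA of the 3 synthetase genes was higher in PHF8 cells than in wt cells, most for OAS1, while OASL did not pass the test. OAS1 had 18.8, 20.6, 19.0 and 19.0 CPM in PHF8 libraries 1 to 4, against 4.76, 4.64, 6.70 and 6.93 CPM in the wt libraries. The 2 groups did not overlap. OAS1 rose by 1.69 ± 0.16 on the log2 scale (SE, n = 4 each; limma, adjusted p = 2.1e-05), a 3.36-fold ratio of mean CPM. OAS3 had 41.2, 41.8, 36.0 and 34.1 CPM in the PHF8 libraries, against 16.5, 17.4, 16.2 and 16.98 CPM in the wt libraries. Every PHF8 library was above every wt library, and OAS3 rose by 1.16 ± 0.21 (SE; limma, adjusted p = 0.0020). OAS2 had 22.7, 20.8, 16.99 and 16.9 CPM in the PHF8 libraries, against 9.81, 10.4, 10.7 and 11.0 CPM in the wt libraries. The groups did not overlap for OAS2 either, and it rose by 0.84 ± 0.27 (SE; limma, adjusted p = 0.047). That call rests on every library: without any one of the 8 PHF8 and wt libraries the adjusted p in limma lay between 0.070 and 0.121. OASL, the member without synthetase activity, had 1.87, 1.89, 2.54 and 2.36 CPM in the PHF8 libraries, against 2.05, 1.96, 1.99 and 1.40 CPM in the wt libraries. These groups overlapped, and the difference of 0.18 had a 95% interval from -0.21 to 0.58 (limma, adjusted p = 0.55). OASL rested on 37 to 128 reads per PHF8 library and 29 to 84 reads per wt library; the 37 reads of PHF8 library 1 gave a counting interval from 1.32 to 2.58 CPM. Of the 4 genes, 3 were called higher, where 12.7% of all genes tested were; the same 3 did not overlap, where 15.3% of all genes were higher without overlap. OAS1 ranked 71 of 13683 genes by size of rise.

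In F279S cells the 3 synthetase genes were also above wt cells in every library, but none was called. OAS1 had 14.1, 12.9, 9.77 and 9.45 CPM in F279S libraries 1 to 4, against 4.64 to 6.93 CPM in the wt libraries. Its difference was 0.95 ± 0.16 on the log2 scale (SE, n = 4 each; limma, adjusted p = 0.11), and it passed with the replicate number as a block (limma, adjusted p = 0.021) but not with library pairs averaged and the pair as a block (limma, adjusted p = 0.97). OAS3 had 36.5, 35.7, 18.4 and 18.5 CPM in the F279S libraries, against 16.2 to 17.4 CPM in the wt libraries. The F279S libraries thus fell into 2 levels, and the lower pair lay just above the wt libraries; the difference was 0.61 ± 0.21 (SE; limma, adjusted p = 0.55). OAS2 had 29.4, 26.7, 11.5 and 11.6 CPM in the F279S libraries, against 9.81 to 11.0 CPM in the wt libraries. It showed the same 2 levels, with a difference of 0.76 ± 0.27 (SE; limma, adjusted p = 0.60). OASL had 3.46, 2.91, 1.83 and 2.10 CPM in the F279S libraries, against 1.40 to 2.05 CPM in the wt libraries. The groups overlapped and the difference was 0.37, with a 95% interval from -0.03 to 0.77 (limma, adjusted p = 0.82). The background of this comparison was low: 0.0146% of all genes tested were called in either direction, which is 2 genes, and 871 genes had an unadjusted p below 0.05 in limma. Of the 4 OAS genes, 3 lay above wt without overlap, where 2.55% of all genes did, and OAS1 ranked 6 of 13683 by p. Without F279S library 2, which carried the fibroblast markers, the differences were 0.89 for OAS1, 0.57 for OAS2 and 0.45 for OAS3. Without F279S library 1, where these markers summed to 1.43 CPM, they were 0.85, 0.53 and 0.44.

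Set against the F279S line, PHF8 cells had more OAS1 RNA, and the other 3 genes were not called. OAS1 rose by 0.74 ± 0.16 on the log2 scale (SE, n = 4 each; limma, adjusted p = 0.0057), and its lowest PHF8 library, at 18.8 CPM, was above its highest F279S library, at 14.1 CPM; 15.4% of all genes were higher without overlap. OAS3 differed by 0.55 ± 0.21 (SE; limma, adjusted p = 0.086) and passed with the replicate number as a block (limma, adjusted p = 0.017). With library pairs averaged and the pair as a block neither gene was called (limma, adjusted p = 0.093 for OAS1 and 0.157 for OAS3). OAS2 averaged 19.3 ± 2.90 CPM in PHF8 libraries and 19.8 ± 9.57 CPM in F279S libraries (SD, n = 4 each), and its log2 difference of 0.09 had a 95% interval from -0.51 to 0.68. OASL averaged 2.17 ± 0.34 CPM in PHF8 libraries and 2.57 ± 0.75 CPM in F279S libraries (SD, n = 4 each), a log2 difference of -0.18 with a 95% interval from -0.58 to 0.22. Of the 4 genes, 1 was called higher, where 12.2% of all genes tested were.

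**Figure D2:**
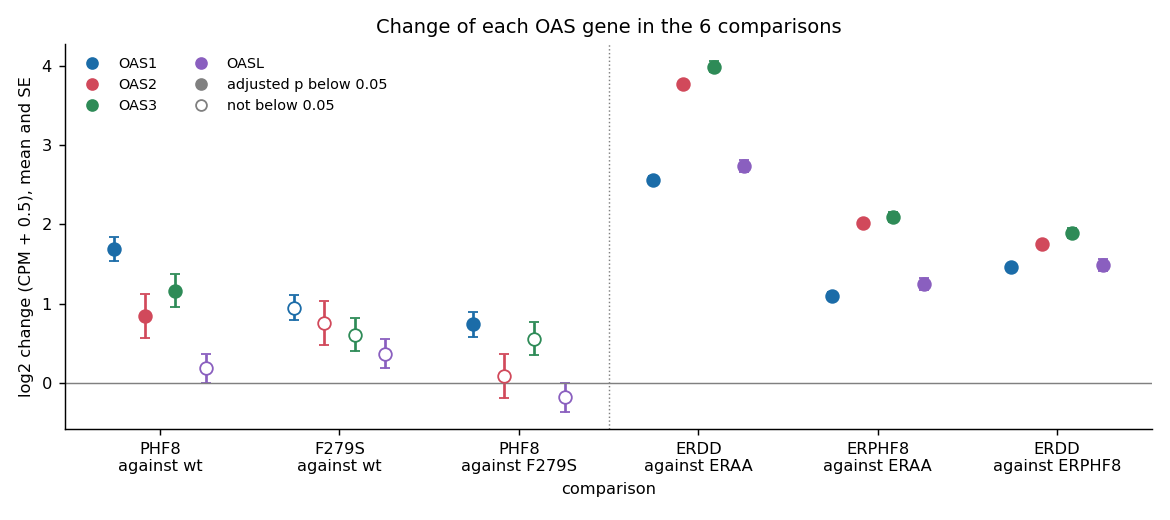
Difference of log2(CPM + 0.5) for each OAS gene in the 6 comparisons, with its SE from limma; filled points have an adjusted p below 0.05 and the dotted line parts the 2 experiments. In ERDD against ERAA the 4 genes lie between 2.56 and 3.99, while PHF8 against wt runs between 0.18 for OASL and 1.69 for OAS1.

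The differences from wt varied between the library pairs, most in the F279S line. OAS2 differed between F279S and wt cells by 1.43 on the log2 scale in libraries 1 and 2 and by 0.09 in libraries 3 and 4. OAS3 differed by 1.07 in libraries 1 and 2 and by 0.15 in libraries 3 and 4, and OAS1 by 1.43 and by 0.47. The change of these differences, libraries 3 and 4 minus libraries 1 and 2, was called for OAS2 (-1.34 ± 0.11, SE; limma, adjusted p = 6.5e-05), OAS3 (-0.92 ± 0.09; adjusted p = 0.00024) and OAS1 (-0.96 ± 0.12; adjusted p = 0.0016). Of all genes tested, 0.519% were called in that direction, and OAS2, OAS3 and OAS1 ranked 7, 12 and 25 by p. In libraries 1 and 2 alone, all 4 OAS genes were called higher in F279S than in wt, where 7.7% of genes were; in libraries 3 and 4 alone none of the 4 was, where 0.037% of genes were (5 genes in limma). By level, OAS2 averaged 11.6 CPM in libraries 3 and 4 of the F279S line and 28.0 CPM in its libraries 1 and 2, while in wt cells it averaged 10.9 CPM and 10.1 CPM. OAS1 also moved in wt cells, with 6.81 CPM in libraries 3 and 4 and 4.70 CPM in libraries 1 and 2.

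PHF8 against wt stayed above 0 for the synthetases in each library pair. OAS1 differed by 1.96 in libraries 1 and 2 and by 1.41 in libraries 3 and 4, OAS3 by 1.27 and by 1.06, and OAS2 by 1.07 and by 0.62, all called within each pair by limma. Of all genes tested, 26.5% were called higher in libraries 1 and 2 and 23.2% in libraries 3 and 4. The change between pairs was called for OAS1 (-0.55 ± 0.12, SE; limma, adjusted p = 0.0057) and OAS2 (-0.45 ± 0.11; adjusted p = 0.010), where 14.4% of all genes were called in that direction. For OAS3 it was -0.21 (adjusted p = 0.096) and for OASL 0.51 (adjusted p = 0.099). By level, OAS1 averaged 19.0 CPM in libraries 3 and 4 of the PHF8 line and 19.7 CPM in its libraries 1 and 2. In wt cells OAS1 averaged 6.81 CPM and 4.70 CPM, so its level moved mainly in the wt cells. PHF8 against F279S changed sign between the pairs for OAS2, at -0.36 in libraries 1 and 2 and 0.53 in libraries 3 and 4, both called by limma within the pair, where 54% and 34.7% of all genes were called in either direction. OASL was at -0.62 in libraries 1 and 2, where it was called, and at 0.26 in libraries 3 and 4, where it was not. The difference between pairs was not tested for PHF8 against F279S. Sequencing depth was mostly higher in libraries 3 and 4, at 20.8 M to 51.5 M reads against 18.2 M to 24.3 M in libraries 1 and 2; its part in these differences was not tested.

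**Figure D3:**
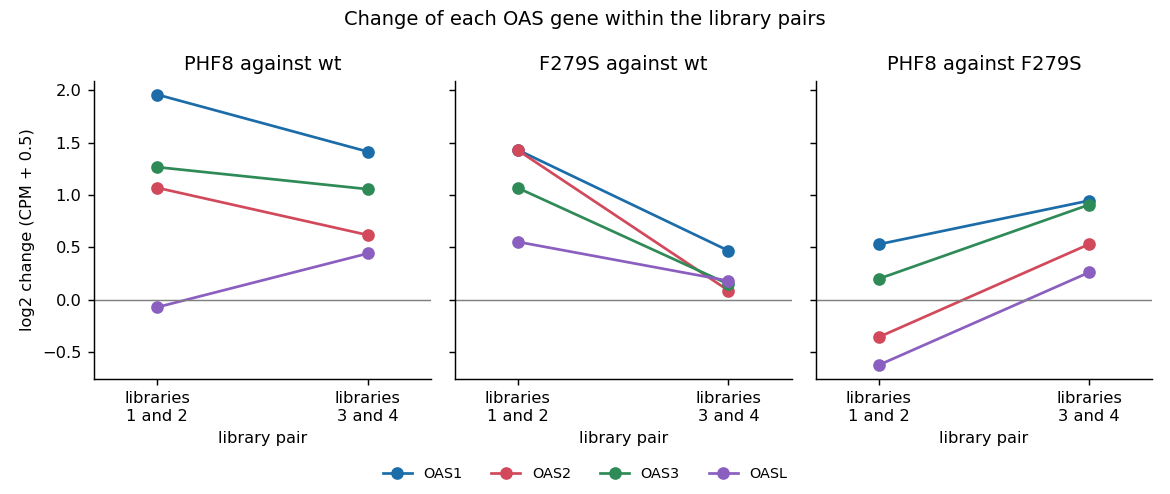
Difference of log2(CPM + 0.5) for each OAS gene in libraries 1 and 2 and in libraries 3 and 4, for the 3 comparisons of the first experiment; lines join the same gene. In F279S against wt, OAS2 stands at 1.43 in libraries 1 and 2 and at 0.09 in libraries 3 and 4, and OAS2 and OASL cross 0 in PHF8 against F279S.

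In the second experiment all 4 genes were highest in ERDD, lower in ERPHF8 and lowest in ERAA, with no overlap between lines. Of all genes tested, 42.1% were higher without overlap in ERDD against ERAA, 41.9% in ERPHF8 against ERAA and 39% in ERDD against ERPHF8. OAS3 had 663 and 671 CPM in ERDD, 179 and 179 CPM in ERPHF8 and 44.6 and 38.6 CPM in ERAA. OAS2 had 493 and 481 CPM in ERDD, 145 and 142 CPM in ERPHF8 and 35.3 and 35.2 CPM in ERAA. OAS1 had 171 and 172 CPM in ERDD, 62.4 and 62.0 CPM in ERPHF8 and 28.1 and 29.4 CPM in ERAA. In each of these genes the 2 libraries of a line lay close together compared with the steps between lines. OASL had 35.3 and 36.6 CPM in ERDD, 12.5 and 12.6 CPM in ERPHF8 and 4.69 and 5.26 CPM in ERAA.

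ERDD against ERAA gave the largest differences of the 6 comparisons for each of the 4 genes. OAS3 rose by 3.99 ± 0.06 on the log2 scale (SE, n = 2 each; limma, adjusted p = 7.1e-09) and OAS2 by 3.77 ± 0.04 (adjusted p = 1.0e-09), ratios of mean CPM of 16.0 and 13.8. OASL rose by 2.74 ± 0.07 (SE; limma, adjusted p = 7.9e-08) and OAS1 by 2.56 ± 0.04 (adjusted p = 9.6e-09), ratios of 7.22 and 5.97. All 4 were called higher, where 34.8% of all genes tested were, so the calls alone say little. By size, OAS3 ranked 6, OAS2 9, OASL 25 and OAS1 29 of 13831 genes, and all 4 were among the 316 genes called and at least 2-fold higher. ERPHF8 against ERAA gave 2.09 for OAS3, 2.01 for OAS2, 1.25 for OASL and 1.10 for OAS1, all called by limma, where 29.7% of all genes were called higher. All 4 were among the 85 genes called and at least 2-fold higher. ERDD against ERPHF8 gave 1.895 for OAS3, 1.76 for OAS2, 1.49 for OASL and 1.46 for OAS1, all called by limma, where 24.8% of all genes were called higher. These 3 comparisons share libraries. PHF8 RNA fell by 0.95 in ERDD against ERAA (limma, adjusted p = 9.2e-06) and differed by -0.17 in ERPHF8 against ERAA (limma, adjusted p = 0.0625); its part in the OAS differences was not tested.

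OASL was called in all 3 comparisons of the second experiment and in none of the first; the difference between the experiments was not tested. Across the 6 lines, each library scaled to its own total, the order for OAS1 was ERDD, ERPHF8, ERAA, PHF8, F279S and wt. Neighbours within an experiment did not overlap, beside the shares over all genes given above. The experiments have no line in common, so between ERAA and PHF8 line and experiment cannot be told apart. For OAS2, F279S and PHF8 overlapped between ERAA and wt. For OAS3, ERAA overlapped PHF8 and PHF8 overlapped F279S, and for OASL the F279S, PHF8 and wt lines overlapped. Per kilobase of merged exon, OAS3 averaged 80.8, OAS2 77.7, OAS1 34.7 and OASL 10.2 CPM per kb in ERDD. In wt cells the levels per kilobase were 2.03 for OAS3, 1.67 for OAS2, 1.16 for OAS1 and 0.526 for OASL, the same order of genes as in ERDD. In the PHF8 line OAS1, at 3.91 CPM per kb, lay above OAS2, at 3.09 CPM per kb. In ERAA OAS1 was the highest of the 4, at 5.81 ± 0.19 CPM per kb (SD, n = 2). OAS2 stood at 5.62 ± 0.01 and OAS3 at 5.05 ± 0.51 CPM per kb. Per kilobase of the whole gene span, OAS3 was the highest in ERAA, at 1.19 CPM per kb. By that length OAS1 stood at 1.09 and OAS2 at 1.06, so the order in ERAA depends on the length used.

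Ratios among the members varied by line; these ratios were chosen after their values were seen and carry no test. OAS2 to OAS1, a ratio of CPM within a library, averaged 1.00 ± 0.15 in PHF8, 1.64 ± 0.50 in F279S and 1.87 ± 0.33 in wt libraries (SD, n = 4 each). It averaged 2.84 ± 0.06 in ERDD, 2.31 ± 0.02 in ERPHF8 and 1.23 ± 0.04 in ERAA libraries (SD, n = 2 each). The PHF8 line thus carried a larger share of OAS1 than wt cells, while ERDD carried a smaller one than ERAA. The means of OAS3 to OAS1 followed the same order, at 1.98 in PHF8, 2.30 in F279S and 3.03 in wt libraries. They were 3.88 in ERDD, 2.87 in ERPHF8 and 1.45 in ERAA libraries. In F279S libraries 1 and 2 this ratio was 2.58 and 2.77. In F279S libraries 3 and 4 it was 1.89 and 1.95, within the PHF8 range of 1.80 to 2.19. OASL to OAS1 averaged 0.112 in PHF8, 0.220 in F279S and 0.338 in wt libraries, against a narrow 0.173 to 0.209 over the means of the ER lines.

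**Figure D4:**
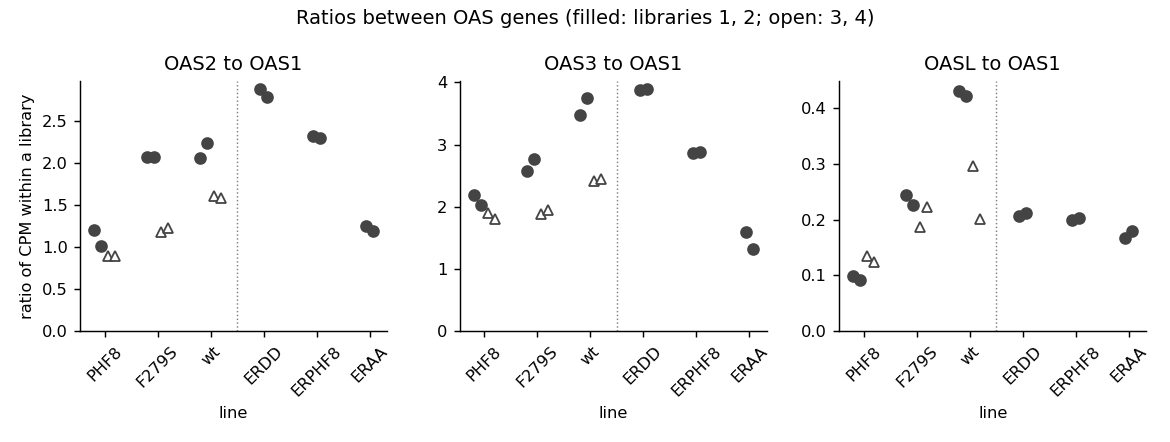
Ratio of CPM within a library for OAS2, OAS3 and OASL, each to OAS1, in the 6 lines; filled circles are libraries 1 and 2, open triangles libraries 3 and 4, and the dotted line parts the 2 experiments. OAS2 to OAS1 averages 1.00 in PHF8 against 1.87 in wt, and 2.84 in ERDD against 1.23 in ERAA.

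Enzymes that degrade the oligoadenylates made by OAS1, OAS2 and OAS3 were examined beside them. PDE12, which degrades these products, averaged 50.7 ± 0.64 CPM in ERDD and 35.7 ± 0.40 CPM in ERAA (SD, n = 2 each) and rose by 0.50 ± 0.05 on the log2 scale (SE; limma, adjusted p = 3.8e-05). PDE12 also rose by 0.49 in ERPHF8 against ERAA, and it differed by 0.01 in ERDD against ERPHF8 (limma, adjusted p = 0.84). In PHF8 against wt its difference was -0.08 (limma, adjusted p = 0.82). AKAP7, whose mouse form is known to degrade the same products, rose by 0.50 ± 0.11 in PHF8 against wt (SE; limma, adjusted p = 0.0071). In ERDD against ERAA it fell by 0.40 ± 0.07 (SE; limma, adjusted p = 0.0013), while in ERPHF8 against ERAA it rose by 0.34. Over all genes tested, 34.8% were called higher and 33.3% lower in ERDD against ERAA. The share called higher was 29.7% in ERPHF8 against ERAA and 12.7% in PHF8 against wt.

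Other genes of double-stranded RNA sensing were mostly higher in ERDD as well. Of 7 tested, 6 rose and 1 fell in ERDD against ERAA, with a median of 1.67; over all genes 34.8% were called higher and 33.3% lower. EIF2AK2, the kinase PKR, rose by 1.92 ± 0.04 (SE; limma, adjusted p = 3.5e-08), DHX58 by 1.85 and DDX58, which encodes RIG-I, by 1.70. MAVS, the adaptor of RIG-I, fell by 0.32. In PHF8 against wt, 2 of 6 tested rose and none fell: DDX58 by 0.83 ± 0.08 (SE; limma, adjusted p = 2.0e-05) and EIF2AK2 by 0.37 (adjusted p = 0.017), with a median of 0.08; over all genes 12.7% were called higher and 8.28% lower. EIF2AK2 overlaps another gene of the table.

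Among 10 genes of the interferon receptor pathway, 5 rose and 3 fell in ERDD against ERAA, with a median of 0.09, beside 34.8% called higher and 33.3% lower over all genes. IRF7, a transcription factor that is itself interferon-induced, rose by 2.33 ± 0.05 (SE; limma, adjusted p = 2.3e-08) and IRF9 by 1.35, while the receptor chain IFNAR1 fell by 0.25. In PHF8 against wt none of the 10 rose and 1 fell, IRF3 by 0.34 (limma, adjusted p = 0.038), with a median of 0.00, beside 12.7% called higher and 8.28% lower over all genes. IRF7 differed by 0.39 in PHF8 against wt (limma, adjusted p = 0.16). IRF9 and IRF3 overlap other genes of the table.

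In ERDD against ERAA, genes within 500 kb of the members did not share their size of change. Of 28 such genes 24 were tested, and in ERDD against ERAA 9 rose and 8 fell, with a median of 0.06 and a range from -1.35 for P2RX7 to 1.28 for SDS. These counts lie close to the shares over all genes, 34.8% higher and 33.3% lower. The 4 OAS genes lay between 2.56 and 3.99 in that comparison. RPH3A, DTX1 and RASAL1 did not reach the filter, with means of at most 0.462 CPM in ERDD. In PHF8 against wt 3 rose and none fell, beside 12.7% called higher over all genes. The largest was IQCD at 0.64 ± 0.14 (SE; limma, adjusted p = 0.0062). In that comparison OASL, at 0.18, lay within the neighbours' range from -0.27 to 0.64. OAS2, OAS3 and OAS1 lay above it, at 0.84, 1.16 and 1.69. SDS and IQCD overlap other genes of the table.

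**Figure D5:**
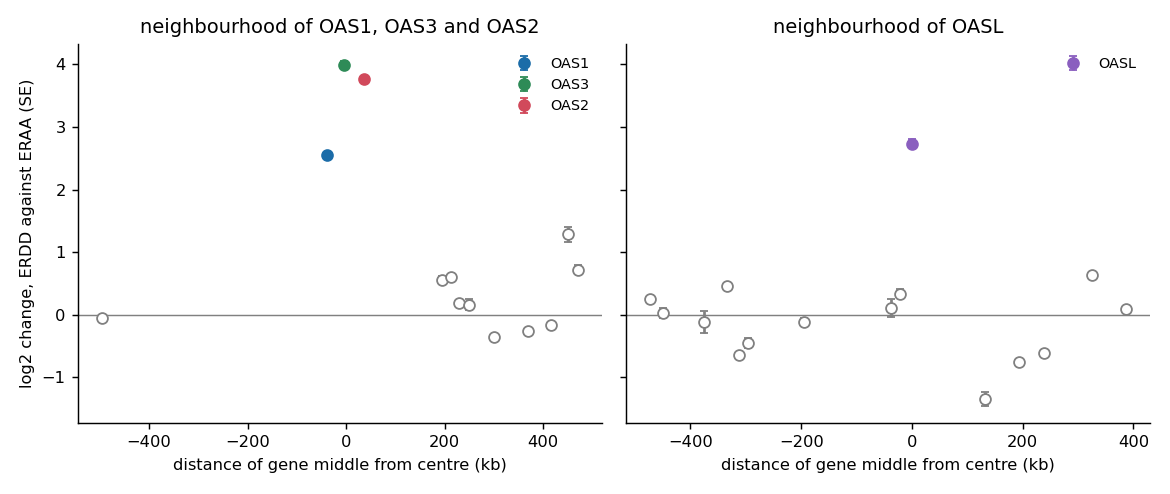
Difference of log2(CPM + 0.5) between ERDD and ERAA, with its SE, for the OAS genes (filled) and the tested genes within 500 kb (open), against the distance of each gene's middle from the centre of the OAS genes. The neighbours lie between -1.35 and 1.28, while the OAS genes lie between 2.56 and 3.99.

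Likeness of pattern was measured as the root mean square difference of log2(CPM + 0.5), centred within each experiment, over 18 libraries and 13504 genes. OAS2 and OAS3 were each other's nearest gene, at 0.191, where the median over all genes was 1.01 for OAS2. Next to OAS2 stood IFI44 at 0.220 and EPSTI1 at 0.222, and next to OAS3 EPSTI1 at 0.198 and IFIT1 at 0.216. The closest genes to OAS1 were IFI16 at 0.306, STAP1 at 0.339 and LGALS3BP at 0.362, and its nearest member, OAS3, stood at 0.429. OASL was closest to PARP9 at 0.161, with USP18 at 0.188, and its nearest member, OAS2, stood at 0.417. Averaged over the 4 members the nearest genes were EPSTI1 at 0.325, IFITM1 at 0.326, IFIT3 at 0.345, HERC6 at 0.360 and USP18 at 0.364. EPSTI1 averaged 4.26 CPM in PHF8, 3.35 CPM in F279S and 1.71 CPM in wt libraries, and 105.7 CPM in ERDD, 32.1 CPM in ERPHF8 and 8.44 CPM in ERAA libraries. PARP9, IFIT1, IFITM1 and IFIT3 overlap another gene of the table.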

How the data were processed

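Poly(A)-selected RNA of 18 THP-1 libraries was analysed. The submitters' processing notes name SAMtools 1.9, STAR 2.7.0c and DESeq2 with the build hg38; no counter, strand setting or annotation release is stated there. The deposited values are RPKM, scaled by the authors to the whole gene span and the library total; multiplied by span they gave whole reads for 100% of values within 0.001. CPM was computed from them. Genes at 1 CPM or more in at least 4 of 12 or 2 of 6 libraries were tested with limma 3.58.1 (R 4.3.3) on log2(CPM + 0.5), each experiment in its own fit, with a trend in the prior variance. A second fit held the interaction of line and library pair. On simulated data, 100 of 100 genes changed by 1 on the log2 scale were recovered for PHF8 against wt, over 13580 genes. In the same simulation 14 unchanged genes were called. The simulated reads had the same dispersion for every gene and no split between libraries 1, 2 and 3, 4. The simulation therefore checks the fit and does not measure its power in these data.

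Same-numbered libraries of the first experiment deviated together from their group means (correlation 0.484 to 0.908). The reported comparisons between lines were nevertheless fitted on the line alone, without pairing. The replicate number and the library pair entered those comparisons only as alternatives. Differently numbered libraries reached -0.86 to 0.819, so the check does not separate the number from the split into libraries 1, 2 and 3, 4. No pair of libraries agreed within counting noise, and none was merged. Counting intervals are exact Poisson, 95%, and cover counting error only. Of the listed genes the text names up to 4 per list and comparison by smallest p, besides the members and PHF8; some genes that this rule names are not reported here; any other listed gene that is named, such as the extremes of a range, was chosen after its values were seen. The members and lists were chosen with earlier results of these data known. Alternatives were other pseudocounts, no filter, TMM scaling, the replicate block, library pairs, leaving out each library, and voom on the recovered reads; voom and a block with crossed ERAA numbers were chosen after seeing the data.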

Additional observations from a re-analysis of the deposited data

Results flagged for a closer look

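The difference from wt changed between libraries 1 and 2 and libraries 3 and 4 in 5 cases, by limma's interaction of line and library pair. In F279S minus wt the change was -1.34 for OAS2, -0.92 for OAS3 and -0.96 for OAS1 on the log2 scale. There 0.519% of all genes were called in that direction and 0.899% in either. In PHF8 minus wt the change was -0.55 for OAS1 and -0.45 for OAS2. There 14.4% of all genes were called in that direction and 30.5% in either, so these 2 calls alone say little. From libraries 1 and 2 to libraries 3 and 4, OAS1 itself moved by -0.05 in PHF8 cells and by 0.49 in wt cells.

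In 12 groups of 4 libraries, 2 held a library far from the other 3 compared with the range of the group. The rule flags about 5% of groups of 4 independent, normal values. Here libraries 1 and 2 stood apart from libraries 3 and 4, and the genes share libraries, so 5% is not the rate to set beside these groups. OAS1 had 20.6 CPM in PHF8 library 2, above the other 3 at 18.8 to 19.0 CPM. It rested on 501 reads, with a counting interval from 18.83 to 22.48 CPM, which holds the values of the other 3. OASL had 1.40 CPM in wt library 4, below the other 3 at 1.96 to 2.05 CPM; it rested on 29 reads, with a counting interval from 0.934 to 2.004 CPM.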

How the results depend on the processing

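All results of the second experiment kept their direction and call in the 13 alternatives run for each. In the first, OAS1 and OAS3 kept their calls in PHF8 against wt in all 22 alternatives, with ranges of 1.41 to 1.96 and 1.06 to 1.27. OAS2 lost its call there in 12 of 22; besides the libraries left out, these were no filter (adjusted p = 0.066 in limma), TMM scaling (0.053), averaged library pairs (0.126) and voom (0.087). The number of OAS genes called in F279S against wt, 0 as reported, was 1 with the replicate block and 2 with the library pair as a term. It was 4 in libraries 1 and 2 alone, all higher, where 7.7% of all genes were called higher. It stayed 0 with library pairs averaged (adjusted p = 0.97 for each of the 4 in limma) and in libraries 3 and 4 alone. In PHF8 against F279S, 1 as reported, the number was 2 with the replicate block, 2 with the pair as a term and 2 with voom. With library pairs averaged it was 0. In libraries 1 and 2 alone it was 4, with OAS1 and OAS3 higher and OAS2 and OASL lower. In libraries 3 and 4 alone it was 3, all higher. Of all genes, 54% and 34.7% were called in either direction in these 2 pairs. The number ranged from 1 to 2 when a library was left out (2 without F279S library 1 or 2, where OAS3 was called). Directions reversed in 5 cases. OASL in PHF8 against wt was -0.072 in libraries 1 and 2 alone. In PHF8 against F279S, OAS2 was -0.36 in libraries 1 and 2 alone and ranged from -0.12 to 0.32 when a library was left out (below 0 without F279S library 3 or 4), and OASL was 0.26 in libraries 3 and 4 alone. The cause was not tested. The replicate block changed no other member's call; over all genes it gave 298 calls in F279S against wt, where 2 are reported, 5620 in PHF8 against F279S, where 2750 are, and 5670 in PHF8 against wt, where 2874 are. For the change between library pairs it gave 585 calls in F279S minus wt, where 123 are reported, and 6470 in PHF8 minus wt, where 4179 are. In the second experiment same-numbered libraries correlated at -0.336 to 0.104, so the numbers were not taken to pair them; with the ERAA numbers crossed, all 4 members were called in each comparison. The planned count tests on recovered reads were not run, since the deposited unit is RPKM. Depth limits OASL in the first experiment, at 29 to 128 reads per library.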
